A study of Mus musculus with 12 samples.

Results

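The unnamed loci described here are stretches of genome in which the authors' transcript assembly found RNA but to which no gene name was attached, and which lie inside the 3 mouse immunoglobulin loci. A locus was taken when its gene field held no name and its midpoint (GRCm38) fell on chromosome 12 between 113.2 and 116.1 Mb (heavy chain), on chromosome 6 between 67.5 and 70.8 Mb (kappa light chain) or on chromosome 16 between 19.0 and 19.3 Mb (lambda light chain). This gave 1337 loci among the 461263 unnamed loci and the 506504 loci in all: 517 heavy, 769 kappa and 51 lambda. Of the 1337, 17 reached 1 FPKM (mapped fragments scaled by locus length and library size) in 0 libraries, 760 in 1 library, 246 in 2 libraries, and the remaining 314 in at least 3 of the 12 libraries and were tested (94 heavy, 179 kappa and 41 lambda). Their lengths ran from 95 to 22641 bp with a median of 271 bp, and 3 of them, all lambda, overlapped a named locus of the tables.

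The RNA came from splenic B cells of female C57BL6-background mice at 6 months of age, all carrying the Sle1b lupus susceptibility interval. One genotype is B6.Sle1b. The other, B6.Sle1b.IFNaR1-/-, also lacks, as labelled, the Ifnar1 chain of the type I interferon receptor. Non-germinal centre (non-GC) cells were sorted as live B220+ GL7- CD95- cells and germinal centre (GC) cells as live B220+ GL7+ CD95+ cells, both from pools of splenocytes. Each of the 4 groups had 3 libraries, 1 in each of 3 batches named in the deposited tables. The labels name no separate animals for the libraries of a group, so p-values measure only how these libraries vary, and part of that variation can be technical.

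The antibody heavy chain locus is built from variable (V), diversity (D) and joining (J) segments that are joined in developing B cells, followed by a row of constant genes, Ighm and Ighd first and Igha last. Every constant gene that can be switched to has its own promoter and a repetitive switch region in front of it, and a non-coding germline transcript runs through that region before it is cut and joined. Germinal centres are a main site of somatic hypermutation. A regulatory region with several enhancers lies beyond Igha, and the kappa locus has enhancers between its J segments and Igkc and again beyond Igkc. Unnamed loci in these gaps are therefore described below by their place relative to the V, D, J and constant genes. The heavy constant genes run towards lower coordinates, so the gap on the high-coordinate side of a constant gene is the one in front of (5′ of) it.

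Only a few of the loci touch a gene that RefSeq names, and 2 promoter windows (GRCm38.p6, 250 bases before to 50 bases after the annotated start) show how an unnamed locus can overlap or adjoin such a gene. XLOC_380645 at chr6:70717355-70718881 lies in front of the kappa J segments. It overlaps the RefSeq long non-coding RNA gene Gm46961 on the minus strand (chr6:70713079-70718876), and XLOC_380644 lies inside the same gene. The upper end of XLOC_380645 is 5 bp beyond the start of Gm46961 (chr6:70718827-70719126 for the window). XLOC_084876 at chr12:113488409-113489373 lies between the heavy D segments and Adam6b, which encodes a sperm-associated ADAM protein, and stops 192 bp before the Adam6b start on the plus strand (chr12:113489315-113489614 for the window). Capitals mark the bases that lie inside the unnamed locus.
Gm46961: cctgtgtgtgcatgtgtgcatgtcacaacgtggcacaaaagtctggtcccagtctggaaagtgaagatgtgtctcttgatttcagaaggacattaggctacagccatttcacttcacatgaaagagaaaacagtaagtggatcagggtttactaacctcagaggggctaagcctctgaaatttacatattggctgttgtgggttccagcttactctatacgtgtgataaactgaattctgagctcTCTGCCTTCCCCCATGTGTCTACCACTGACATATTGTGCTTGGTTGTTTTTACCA
Adam6b: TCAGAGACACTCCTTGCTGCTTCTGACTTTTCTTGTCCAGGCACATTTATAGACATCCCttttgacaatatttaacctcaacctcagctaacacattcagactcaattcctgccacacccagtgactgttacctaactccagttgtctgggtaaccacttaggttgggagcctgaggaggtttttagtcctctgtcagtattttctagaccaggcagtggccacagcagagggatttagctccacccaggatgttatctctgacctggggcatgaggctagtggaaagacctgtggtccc
For Gm46961, 55 of the 300 bases lay inside XLOC_380645, and for Adam6b 59 of the 300 bases lay inside XLOC_084876, all of them before its start. Both strands were searched for the octamer ATTTGCAT, for the E-boxes CAGGTG and also CAGCTG, for the TATA box TATAAA, for the PU.1 core GAGGAA, for the kappa B decamer and for the interferon response motif. The Gm46961 window held the interferon response motif once, beginning 131 bases before the start. The Adam6b window held TATAAA once, on the opposite strand and inside the capitals, and the matches did not overlap another motif. Among 32851 RefSeq promoter windows of the same length, 3.44% held the interferon response motif and 13.6% held TATAAA.

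Several properties of the libraries bear on all that follows. One read was worth 0.136 to 0.400 FPKM per kb of locus length, after 140 to 170 bp were taken off the length. Among loci of 100 to 120 bp, however, the 5th percentile of the values above 0 ran from 46.4 to 2449 FPKM by library. Thus 1 read on a short locus can outweigh many on a long one. Batch 3 stood apart: 22.0% to 44.2% of all unnamed loci reached 1 FPKM in its libraries, against 1.90% to 13.0% in batches 1 and 2, and 665 of the 1337 loci (49.7%) reached 1 FPKM in batch 3 only. The upper end of batches 1 and 2 was the GC libraries of batch 1, with 10.8% in Sle1b and 13.0% in the labelled knockout, against 1.90% and 2.55% in their non-GC partners. The summed FPKM of 8 germinal centre markers was 281 to 969 in the GC libraries of batches 1 and 2 and 64.7 to 90.9 in their non-GC libraries, whereas in batch 3 it was 21.1 and 20.3 in GC against 17.7 and 20.6 in non-GC. The Ifnar1 transcript was 57.5 and 70.0 FPKM in the labelled knockout non-GC libraries of batches 1 and 2, above the 18.5 and 36.5 FPKM of Sle1b, and a whole-gene value cannot check a deleted exon. The libraries are therefore called by their label. Of the GC markers 8 of 8 were higher in GC in Sle1b and 7 of 8 in the labelled knockout, and of 10 resting B cell markers 10 were lower in each. The summed FPKM of 8 plasma cell markers ran from 3.47 to 102 in Sle1b non-GC, 7.77 to 85.6 in Sle1b GC, 6.79 to 90.1 in labelled knockout non-GC and 0.524 to 121 in labelled knockout GC, with 3 of 6 tested markers higher in GC in each genotype. Over all 12 libraries the sums of 7 T cell markers ran from 5.76 to 74.7 FPKM, of 7 myeloid markers from 0.0741 to 131 and of 7 erythroid and platelet markers from 0 to 72.0, with Pf4 at 0 throughout. The highest myeloid and erythroid sums were those of 1 library, Sle1b GC of batch 1, and the part of these cells in the differences below was not tested. Nothing says that strand was kept, and reads of V segments can fit several copies, so which strand or copy a locus represents cannot be told apart.

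No locus passed the test across all loci. Differences of log2(FPKM + 1) were fitted with limma over the 106050 loci at 1 FPKM or more in at least 3 libraries, with batch as a block and Benjamini-Hochberg adjustment. For GC against non-GC cells in Sle1b, 0 of the 314 unnamed immunoglobulin loci and 0.0% of all loci had an adjusted p under 0.05, and 25 of the 314 (9 higher and 16 lower in GC) had an unadjusted p under 0.05, beside 4.29% of all loci. In the labelled knockout the counts were 0 (0.0% of all loci) and 26 (11 higher), beside 5.72%. The contrasts between genotypes and the interaction also gave 0 adjusted calls among the 314 and 0.0% of all loci. Their unadjusted counts among the 314 were 11 in non-GC cells, 12 in GC cells and 11 for the interaction, beside 0.886%, 6.05% and 3.68% of all loci. Batches 1 and 2 alone gave 0 calls among 168 tested unnamed immunoglobulin loci and 4 and 3 among 27287 loci (0.0147% and 0.011%) for GC against non-GC in Sle1b and in the labelled knockout. There 32 and 31 of the 168 had an unadjusted p under 0.05 in limma, beside 10.2% and 16.4% of all loci. The genotype contrasts of these batches called 0 (0.0% of all loci) and gave 5 in non-GC and 8 in GC cells at an unadjusted p under 0.05, beside 1.83% and 7.82%, and the interaction gave 7, beside 4.41%. XLOC_084876, XLOC_109056, XLOC_109112 and XLOC_380646 are named because of their values or place, chosen after the values were seen, as is XLOC_380648. The values below are thus descriptions, and "higher" and "lower" refer to the values and not to a passed test. All differences are on the log2(FPKM + 1) scale, which understates changes of low values, and in sorted bulk RNA fewer cells with a transcript and less RNA per cell cannot be told apart. Setting the medians of the named loci equal in all libraries adds 0.17 to every GC minus non-GC difference in Sle1b and 0.47 in the labelled knockout. Directions below are given without this scaling, and the counts it moves most are printed beside them. A locus at 0 in all 6 non-GC libraries could pass the filter only through GC libraries, and its direction was then fixed. This holds for 5 tested loci among the heavy constant genes, 3 beyond Igha and 2 among the heavy V segments, and the reverse, 0 in all 6 GC libraries, for 5 heavy V, 17 kappa V and 5 lambda loci. Loci above 0 but below 1 FPKM throughout 1 cell type also passed only through the other, and these counts leave them out. Within a batch the differences were joined over the compared pairs of libraries. A pair listed at 0 in both libraries could thus still get a small sign, and no locus was counted as equal.

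Loci among the heavy constant genes mostly had higher values in GC. Of 24 tested loci between Igha and the Ighm and Ighd gene, 20 had a higher mean in Sle1b GC than in non-GC cells and 18 did so in the labelled knockout, with median differences of 1.77 and 1.02. With equal medians of the named loci both counts were 20. Leaving out the 5 loci at 0 in all non-GC libraries, 15 and 13 of 19 were higher, with medians of 1.71 and 0.67. The 5 are XLOC_109068, XLOC_109074, XLOC_109085, XLOC_109087 and XLOC_109098. The 19 still hold XLOC_109100 and XLOC_109105, which were below 1 FPKM in all non-GC libraries. Both passed the filter only through GC libraries. The counts by gap below include all of these loci. The medians of all tested loci were 0.15 and -0.06. By batch, the medians were 2.43, 2.26 and 0.14 in Sle1b and 0.13, 3.15 and -0.05 in the labelled knockout, so batch 3 showed little of it in either. Among the 10 of these loci that were at least 800 bp long, where 1 read weighs little, 9 were higher in GC in both batch 1 and batch 2 in Sle1b and 9 in the labelled knockout. The same was true of 30.7% and 20.8% of all tested loci of that length. The 9 of the labelled knockout include XLOC_109086, listed at 0 FPKM in both of its batch 2 libraries. Its sign in that batch came only from the joined difference. The 10 also hold XLOC_109098 and XLOC_109100, which passed the filter only through GC libraries.

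**Figure D1:**
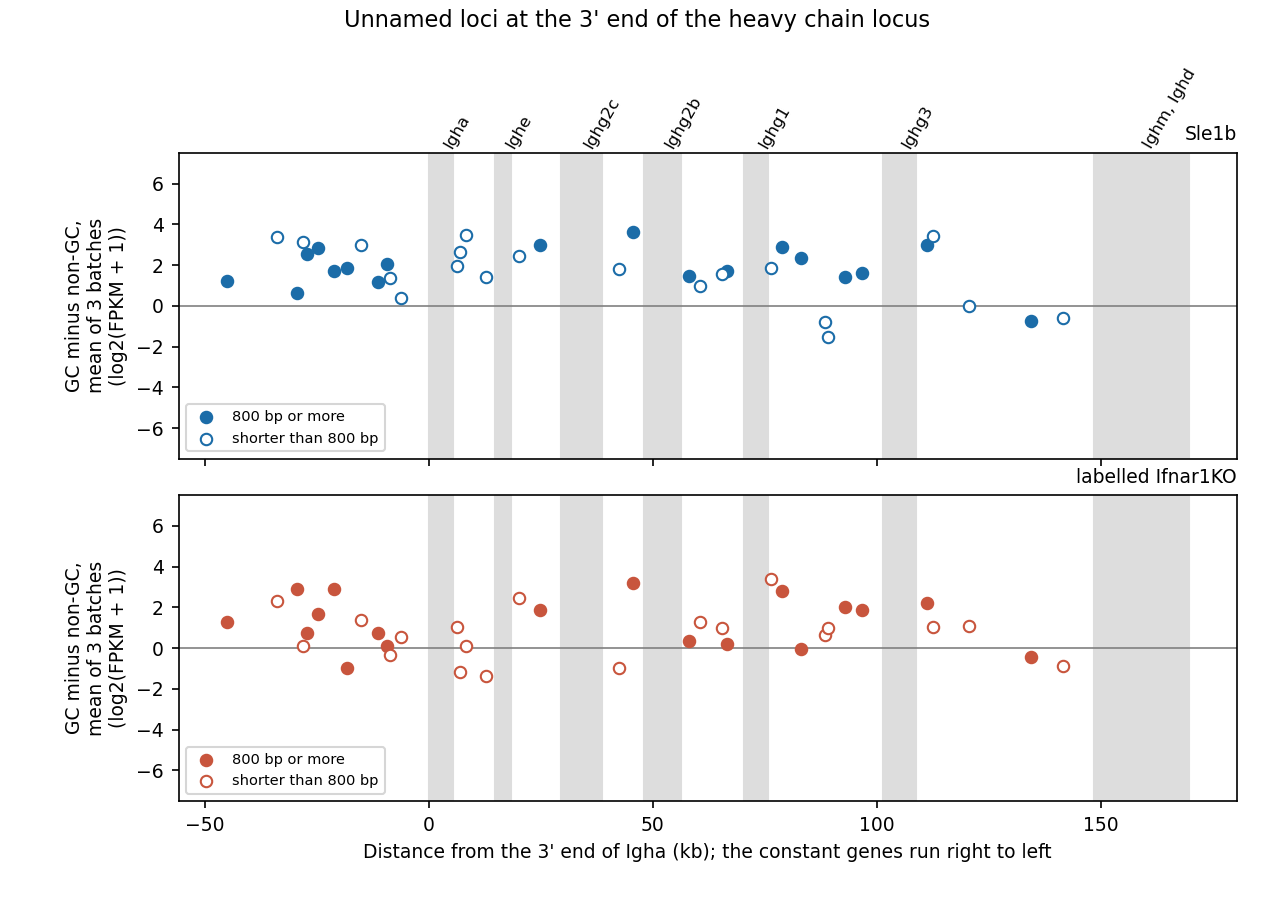
Each point is an unnamed tested locus, placed by its distance in kb from the 3′ end of Igha, against its GC minus non-GC difference of log2(FPKM + 1), averaged over 3 batches; grey bands are constant genes, and filled points are loci of 800 bp or more. In Sle1b 20 of 24 points between Igha and Ighm and 13 of 13 beyond Igha lie above 0, and in the labelled knockout 18 of 24 and 11 of 13.

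By gap, both loci 5′ of Ighe, which encodes the IgE constant region, were higher in GC in both genotypes. The longer one, XLOC_109077 (chr12:113277454-113281824, 4371 bp), was listed at 0 in all 3 Sle1b non-GC libraries and stood at 4.42, 16.1 and 3.81 FPKM in Sle1b GC in batches 1, 2 and 3. Labelled knockout values were 0, 0 and 1.13 FPKM in non-GC and 1.53, 10.6 and 2.46 FPKM in GC. The GC and non-GC libraries did not overlap in either genotype, and the estimated reads behind the GC values were 80, 328 and 54 in Sle1b and 30, 112 and 60 in the labelled knockout. Fitted in the labelled knockout, the difference was 1.87 ± 0.90 (SE; limma, adjusted p = 0.772). The other one, XLOC_109074 (646 bp), was listed at 0 in all 6 non-GC libraries and gave 8.59, 0 and 12.4 FPKM in Sle1b GC and 7.79, 18.2 and 0 FPKM in labelled knockout GC. Ighe itself was listed at 0 in the non-GC libraries of batches 1 and 2 and at 17.1 and 18.1 FPKM in their Sle1b GC libraries.

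In the gap 5′ of Ighg2c, the gene of an IgG2 subclass, XLOC_109081 (chr12:113299628-113300950, 1323 bp) had the largest fitted difference in Sle1b of the 24 loci. Sle1b non-GC libraries gave 0, 0 and 3.55 FPKM and Sle1b GC libraries 8.92, 33.9 and 19.5 FPKM in batches 1, 2 and 3. The labelled knockout gave 0, 0.821 and 13.9 FPKM in non-GC and 23.7, 92.1 and 8.25 FPKM in GC. All GC values exceeded all non-GC values in Sle1b, but in the labelled knockout the batch 3 GC library was below its non-GC partner. The fitted differences were 3.61 ± 1.08 in Sle1b (SE; limma, adjusted p = 0.957) and 3.19 ± 1.08 in the labelled knockout (adjusted p = 0.772). Over the alternatives, the limma adjusted p of the latter ran from 0.054 to 1. Its neighbour XLOC_109080 (701 bp) reached 21.8 FPKM in 1 Sle1b GC library and was at 0 in all 3 labelled knockout GC libraries. Ighg2c stood at 555 and 255 FPKM in the Sle1b GC libraries of batches 1 and 2, against 14.7 and 27.8 in non-GC.

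Ighg1, the IgG1 constant gene, has the longest row of unnamed loci 5′ of it, with 7 tested, of which 5 were higher in GC in Sle1b and 6 in the labelled knockout. Of the 7, XLOC_109087, XLOC_109098 and XLOC_109100 passed the filter only through GC libraries. Nearest to the gene among the long ones was XLOC_109088 (chr12:113331823-113335383, 3561 bp), 1299 bp from it. Its values were 0, 0 and 6.01 FPKM in Sle1b non-GC and 8.39, 39.0 and 5.16 FPKM in Sle1b GC. For the labelled knockout they were 0.158, 0.278 and 2.35 FPKM in non-GC and 7.39, 59.6 and 2.55 FPKM in GC, a difference of 2.83 ± 1.17 (SE; limma, adjusted p = 0.772). Here the batch 3 libraries of Sle1b went the other way, and the groups overlapped in Sle1b but not in the labelled knockout. XLOC_109090 (2006 bp) gave 0, 0 and 5.06 FPKM in Sle1b non-GC and 5.61, 11.0 and 9.38 FPKM in Sle1b GC, without overlap, but 0, 0 and 11.5 FPKM against 0.113, 9.37 and 0 FPKM in the labelled knockout. The short XLOC_109087, XLOC_109093 and XLOC_109094 were each above 0 in 3 libraries. Farther out, XLOC_109098 and XLOC_109100 were at 0.167 FPKM or less in all 6 non-GC libraries. Their GC values in batches 1 and 2 were 3.82 and 2.22, and 0.142 and 20.7 FPKM in Sle1b, and 7.52 and 6.55, and 1.54 and 20.3 FPKM in the labelled knockout, with 0 in batch 3.

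All 4 tested loci 5′ of Ighg2b were higher in GC in both genotypes, with medians of 1.51 and 0.68. XLOC_109082 (chr12:113311332-113314241, 2910 bp) begins 129 bp from the gene. It was at 0, 0.067 and 5.95 FPKM in Sle1b non-GC and 2.26, 18.3 and 1.28 FPKM in Sle1b GC, and at 0, 0.602 and 5.74 FPKM against 0.982, 4.99 and 0.99 FPKM in the labelled knockout. In both genotypes batches 1 and 2 were higher in GC and batch 3 was lower. XLOC_109086 (963 bp) gave 0.733, 0 and 2.83 FPKM in Sle1b non-GC and 3.74, 5.95 and 5.18 FPKM in Sle1b GC, and XLOC_109085 (533 bp) was listed at 0 in all 6 non-GC libraries. The highest single value there was 78.3 FPKM for XLOC_109084 (424 bp) in 1 labelled knockout GC library, where the other 2 were at 0. In front of Ighg3, XLOC_109104 (chr12:113365275-113366514, 1240 bp) was at 0, 1.72 and 1.57 FPKM in Sle1b non-GC and at 9.82, 27.8 and 7.11 FPKM in Sle1b GC. The labelled knockout showed 1.27, 0 and 4.25 FPKM in non-GC and 14.5, 17.2 and 3.18 FPKM in GC. Sle1b groups did not overlap (2.96 ± 0.95, SE; limma, adjusted p = 0.957), and in the labelled knockout batch 3 again went against batches 1 and 2. The adjoining XLOC_109105 (760 bp) was listed at 0 in all 3 Sle1b non-GC libraries and at 27.0, 0.697 and 19.9 FPKM in Sle1b GC, with 2.45, 3.34 and 0 FPKM in labelled knockout GC. Closer to Ighm the direction was mixed: of 5 loci between Ighg3 and Ighm, 3 were higher in GC in each genotype, and XLOC_109110 (893 bp) had 1.07, 8.19 and 2.33 FPKM in Sle1b non-GC and 0, 11.4 and 0 FPKM in GC.

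Igha had 4 unnamed tested loci 5′ of it, all under 800 bp. In Sle1b all 4 were higher in GC, and in the labelled knockout 2 were. XLOC_109068 was listed at 0 in all non-GC libraries, so the filter fixed its direction. XLOC_109070 (chr12:113262900-113263522, 623 bp) was listed at 0 in all 3 Sle1b non-GC libraries and stood at 11.0, 8.65 and 11.1 FPKM in Sle1b GC. Labelled knockout values were 0, 0 and 7.74 FPKM in non-GC and 0, 9.59 and 0 FPKM in GC, so the groups overlapped there. XLOC_109068, XLOC_109069 and XLOC_109073 were above 0 in 3, 3 and 4 libraries. The interaction was not called for any of the 314 loci (limma, lowest adjusted p = 0.971), so a difference between genotypes at this locus was not shown.

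**Figure D2:**
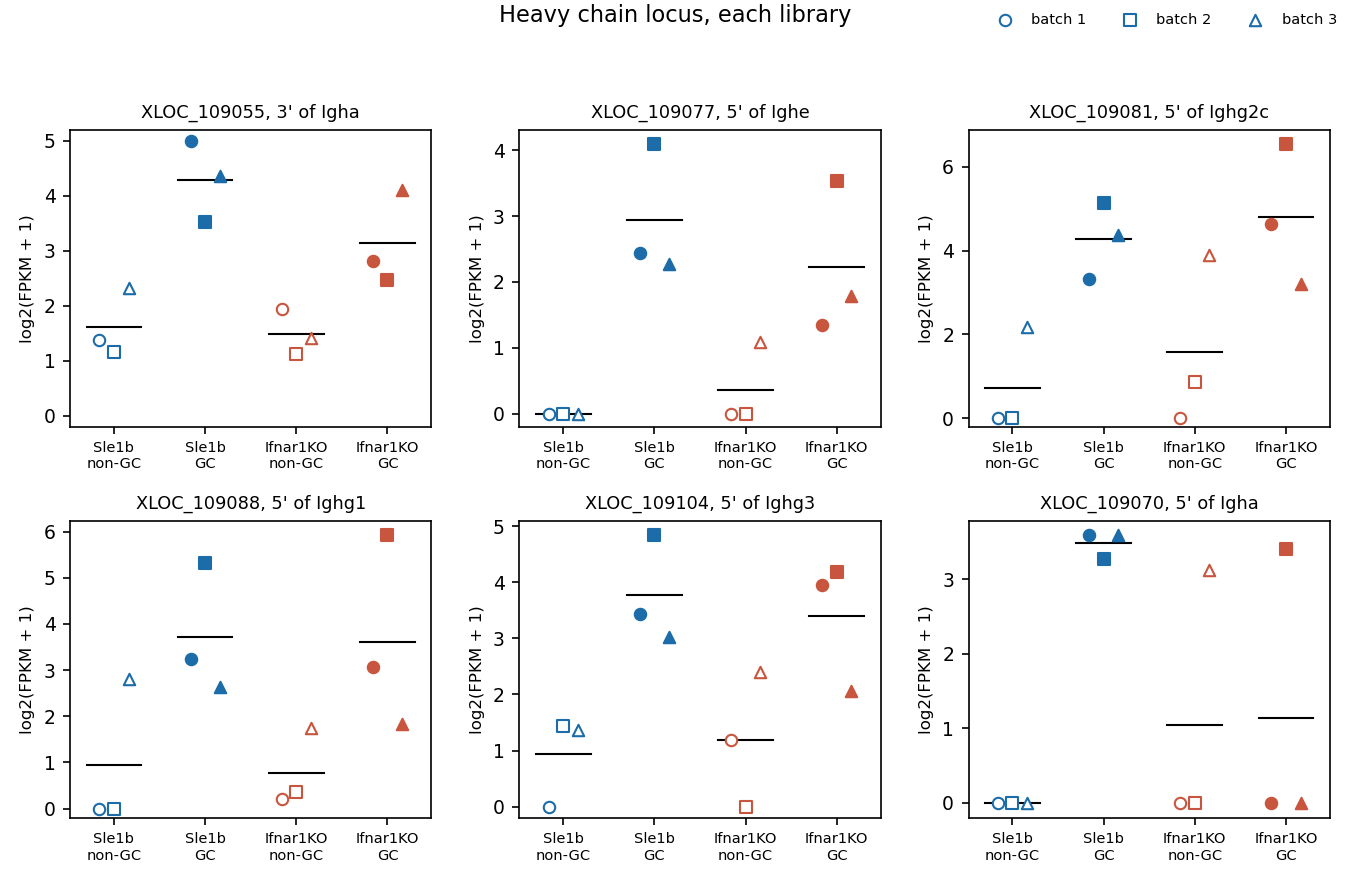
log2(FPKM + 1) of 6 unnamed heavy chain loci in each of the 12 libraries, by group; open points are non-GC, filled points GC, the shape gives the batch and the bar the group mean. The Sle1b GC points of XLOC_109055, XLOC_109077, XLOC_109081, XLOC_109104 and XLOC_109070 all lie above the Sle1b non-GC points, and those of XLOC_109088 do not.

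Beyond Igha, where the heavy chain regulatory region lies, 13 loci were tested. All 13 were higher in GC in Sle1b and 11 in the labelled knockout, with medians of 1.87 and 0.75. Without the 3 at 0 in all non-GC libraries, 10 and 8 of 10 were. By batch the medians were 3.38 and 2.25 in batch 1, 0.01 and 0.0 in batch 2 and 1.93 and 1.16 in batch 3. In batch 1 the GC libraries also had more of all unnamed loci at 1 FPKM or more, and in batch 3 the germinal centre markers did not separate GC from non-GC, as given above; the part of either in these medians was not tested. XLOC_109055 (chr12:113228565-113231560, 2996 bp) had the highest median of these 13 and was above 0 in all 12 libraries. It stood at 1.60, 1.23 and 4.00 FPKM in Sle1b non-GC and at 31.0, 10.6 and 19.6 FPKM in Sle1b GC. Labelled knockout libraries gave 2.85, 1.17 and 1.68 FPKM in non-GC and 6.08, 4.56 and 16.2 FPKM in GC. GC values lay above all non-GC values in both genotypes, in all 3 batches, with 145 to 377 estimated reads in Sle1b GC against 19 to 60 in non-GC. The fitted differences were 2.82 ± 0.69 (SE; limma, adjusted p = 0.957) and 1.68 ± 0.69 (adjusted p = 0.772). Its neighbour XLOC_109056 (1086 bp) was listed at 0 in all 6 non-GC libraries, and its GC values were 29.4, 0 and 0 FPKM in Sle1b and 18.3, 0 and 18.9 FPKM in the labelled knockout.

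Counts by size and by separation were made on the same values as above, so they are no separate support. A difference of at least 1 in the same direction in all 3 batches was found for 6 loci that were higher in Sle1b GC, beside 0.776% of all loci. All 6 lay among or beyond the constant genes (XLOC_109055, XLOC_109059, XLOC_109070, XLOC_109077, XLOC_109081 and XLOC_109104), places that hold 24 and 13 of the 314 tested loci. In the labelled knockout 1 locus did so, XLOC_109055, beside 1.07%. Complete separation of the groups gave 9 loci higher in Sle1b GC, all among or beyond the constant genes, beside 0.853% of all loci. In the labelled knockout it gave 3, beside 1.05% (XLOC_109055, XLOC_109077 and XLOC_109088). Of the 9, XLOC_109105 was below 1 FPKM in all 6 non-GC libraries and passed the filter only through GC libraries. XLOC_109070 and XLOC_109077 were at 0 in all Sle1b non-GC libraries and reached 1 FPKM in 1 non-GC library each. The filter thus bears on their direction.

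Elsewhere in the heavy chain locus the values went in no common direction. The 8 tested loci around the D and J segments had medians of 0.02 in Sle1b and -0.79 in the labelled knockout, where 7 of 8 were lower in GC, or 5 of 8 with equal medians of the named loci. XLOC_109112 (chr12:113475876-113477797, 1922 bp), 459 bp from the D segment Ighd2-3, was at 5.09, 3.78 and 0.106 FPKM in Sle1b non-GC, 3.79, 1.05 and 0.833 in Sle1b GC, 4.69, 5.66 and 0 in labelled knockout non-GC and 0, 0.893 and 0 in labelled knockout GC. XLOC_084876, whose end next to Adam6b is printed above, had 2.92, 2.56 and 0 FPKM in Sle1b non-GC, 0, 4.39 and 0 in Sle1b GC, 2.76, 5.68 and 0 in labelled knockout non-GC, and 0, 18.3 and 0 in labelled knockout GC, so that batches 1 and 2 went opposite ways. Adam6b itself was at 2.18 FPKM or less in all 12 libraries. The 49 tested loci among the V segments had medians of -0.56 and -0.26, and 31 of 49 were lower in GC in each genotype, but in the labelled knockout 30 of 49 were higher (median 0.21) once the named loci were set to equal medians. Of these, XLOC_109224 (chr12:114323033-114323672, 640 bp), 231 bp from Ighv3-8, was the highest by median and stood at 7.19, 13.1 and 4.81 FPKM in Sle1b non-GC against 0.966, 2.19 and 0 FPKM in Sle1b GC, with no overlap. XLOC_109248 (1016 bp), 477 bp from Ighv6-3, gave 3.43, 3.49 and 5.30 FPKM in Sle1b non-GC and 0, 1.96 and 0 FPKM in labelled knockout non-GC, whereas XLOC_109352 (941 bp), 230 bp from Ighv1-41, was listed at 0 in all 6 non-GC libraries and reached 22.5 FPKM in 1 GC library. The labelled knockout values of XLOC_109224, 4.49, 5.09 and 0 FPKM in non-GC and 5.70, 9.24 and 0 FPKM in GC, did not follow.

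At the kappa locus the loci around the J segments and Igkc went the opposite way from those among the heavy constant genes. Of 9 tested loci, 8 were lower in GC in each genotype, with medians of -0.50 and -0.87. With equal medians of the named loci 8 and 5 of the 9 were lower. Without that scaling, 43.4% and 53.0% of all tested loci and 56.2% and 68.5% of named loci were lower. XLOC_380646 (chr6:70742825-70745277, 2453 bp), which lies 475 bp beyond the locus that holds the J segments and Igkc, was at 13.2, 26.0 and 3.17 FPKM in Sle1b non-GC and 0.402, 7.70 and 0.894 FPKM in Sle1b GC. The labelled knockout gave 14.1, 15.4 and 0.661 FPKM in non-GC and 0, 0.514 and 0 FPKM in GC. GC was below non-GC in all 6 pairs, and the labelled knockout groups did not overlap. The fitted differences were -1.94 ± 0.84 (SE; limma, adjusted p = 0.957) and -2.64 ± 0.84 (adjusted p = 0.772).

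Next to it beyond Igkc, XLOC_380647, XLOC_380648 and XLOC_380649 were lower in Sle1b GC in batches 1 and 2. XLOC_380647 (chr6:70745521-70751504, 5984 bp) went from 10.8 and 28.2 FPKM in Sle1b non-GC to 3.08 and 8.46 FPKM in GC, and from 8.26 and 16.1 to 2.14 and 4.97 FPKM in the labelled knockout, while in batch 3 the Sle1b value was 0.0955 FPKM in non-GC and 3.31 FPKM in GC. Igkc, the kappa constant gene, stood at 3878 and 3187 FPKM in Sle1b non-GC and 2497 and 2153 FPKM in Sle1b GC in batches 1 and 2. In batch 1 the joined difference of Igkc on the log2(FPKM + 1) scale was 0.05, against the lower printed value; the direct table of the 2 Sle1b libraries of that batch was not used here, so each printed FPKM is a mean over tables with other partners. Printed FPKM and joined differences were more than 1.5-fold apart there for 2 of the 314 unnamed loci and opposite in sign for 4. In front of the J segments the values were less uniform. XLOC_380645, whose end meets the Gm46961 window printed above, was at 5.90, 10.2 and 3.84 FPKM in Sle1b non-GC and 2.36, 19.6 and 0.646 FPKM in Sle1b GC, and at 7.88, 24.1 and 5.10 FPKM against 2.44, 38.7 and 4.75 FPKM in the labelled knockout. Batch 2 was higher in GC and batch 1 lower in both genotypes, and the groups overlapped.

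Among the kappa V segments, 170 loci were tested, the largest set. Of these, 116 were lower in Sle1b GC and 125 in labelled knockout GC, with medians of -0.42 and -0.60. With equal medians of the named loci, 109 and 93 of the 170 were lower, with medians of -0.25 and -0.14. Without the 17 at 0 in all GC libraries, 99 and 108 of 153 were lower. Of all tested loci 43.4% and 53.0% were lower, and of the named ones 56.2% and 68.5%. The 62 that were at least 800 bp long had 48 and 49 lower, beside 49.1% and 58.7% of all loci of that length. In all 3 batches 13 and 20 of them were lower (21.0% and 32.3%), beside 10.1% and 16.7%. XLOC_380403 (chr6:69697183-69698663, 1481 bp), 2103 bp from Igkv4-50, was at 6.40, 9.41 and 2.56 FPKM in Sle1b non-GC and 0, 1.72 and 0 FPKM in Sle1b GC, with no overlap, and at 5.58, 9.38 and 0 FPKM against 0, 2.09 and 0 FPKM in the labelled knockout. The highest by median were XLOC_380166 and XLOC_380400. XLOC_380166 (chr6:68691761-68692806, 1046 bp) gave 7.05, 8.22 and 13.9 FPKM in Sle1b non-GC and 5.21, 0 and 9.03 FPKM in Sle1b GC, and 1.56, 7.04 and 39.9 FPKM against 0, 0.448 and 0.194 FPKM in the labelled knockout. It was lower in GC in all 6 pairs, with no overlap in the labelled knockout. XLOC_380400 (3030 bp) was lower in GC in all 6 pairs as well, from 2.70, 19.1 and 6.48 to 1.28, 9.50 and 0 FPKM in Sle1b. XLOC_380410 (857 bp), 1660 bp from Igkv12-49, was listed at 0 in all 6 GC libraries and reached 17.8 FPKM in 1 non-GC library.

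At the lambda locus most values were lower in GC cells. Of 41 tested loci, 30 were lower in GC in Sle1b and 37 in the labelled knockout, with medians of -0.70 and -0.82, and 10 and 16 were lower in all 3 batches (24.4% and 39.0%), beside 3.63% and 6.34% of all loci and 16.2% and 26.4% of named loci. Without the 5 at 0 in all GC libraries, 25 and 32 of 36 were lower. With equal medians of the named loci 28 and 30 were lower. The highest by median, XLOC_181406 (chr16:19120221-19121892, 1672 bp), was at 40.0, 102 and 9.41 FPKM in Sle1b non-GC and 16.8, 21.7 and 1.36 FPKM in Sle1b GC, and at 32.6, 63.4 and 9.35 FPKM against 1.93, 46.4 and 0 FPKM in the labelled knockout. GC was below non-GC in all 6 pairs, although the groups overlapped, since batch 2 was high and batch 3 low in every group.

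The same held for XLOC_184957 (chr16:19171897-19174291, 2395 bp), at 12.2, 62.8 and 3.59 FPKM in Sle1b non-GC and 1.44, 27.5 and 0 FPKM in GC, and at 21.9, 62.5 and 1.75 FPKM against 1.95, 27.6 and 0 FPKM in the labelled knockout. Its fitted differences were -1.75 ± 0.63 (SE; limma, adjusted p = 0.957) and -1.78 ± 0.63 (adjusted p = 0.772). The adjoining XLOC_181407 (8928 bp), XLOC_184955 (9539 bp) and XLOC_184958 (1883 bp) were lower in GC in both batches 1 and 2 in each genotype. XLOC_180806 (3591 bp), 125 bp from the V segment Iglv2, went from 10.4 and 25.3 to 0.469 and 9.49 FPKM in Sle1b and from 13.7 and 21.7 to 4.96 and 13.0 FPKM in the labelled knockout in those batches. Of the lambda constant genes, Iglc3 and Iglc4 were lower in GC too, whereas Iglc1 differed in Sle1b by 0.37 in batch 1 and -0.32 in batch 2. Iglc3 stood at 736 and 603 FPKM in Sle1b non-GC and 194 and 203 FPKM in GC in batches 1 and 2, and Iglc4 was at 0 in all 6 GC libraries against 9.05 to 48.4 FPKM in non-GC.

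**Figure D3:**
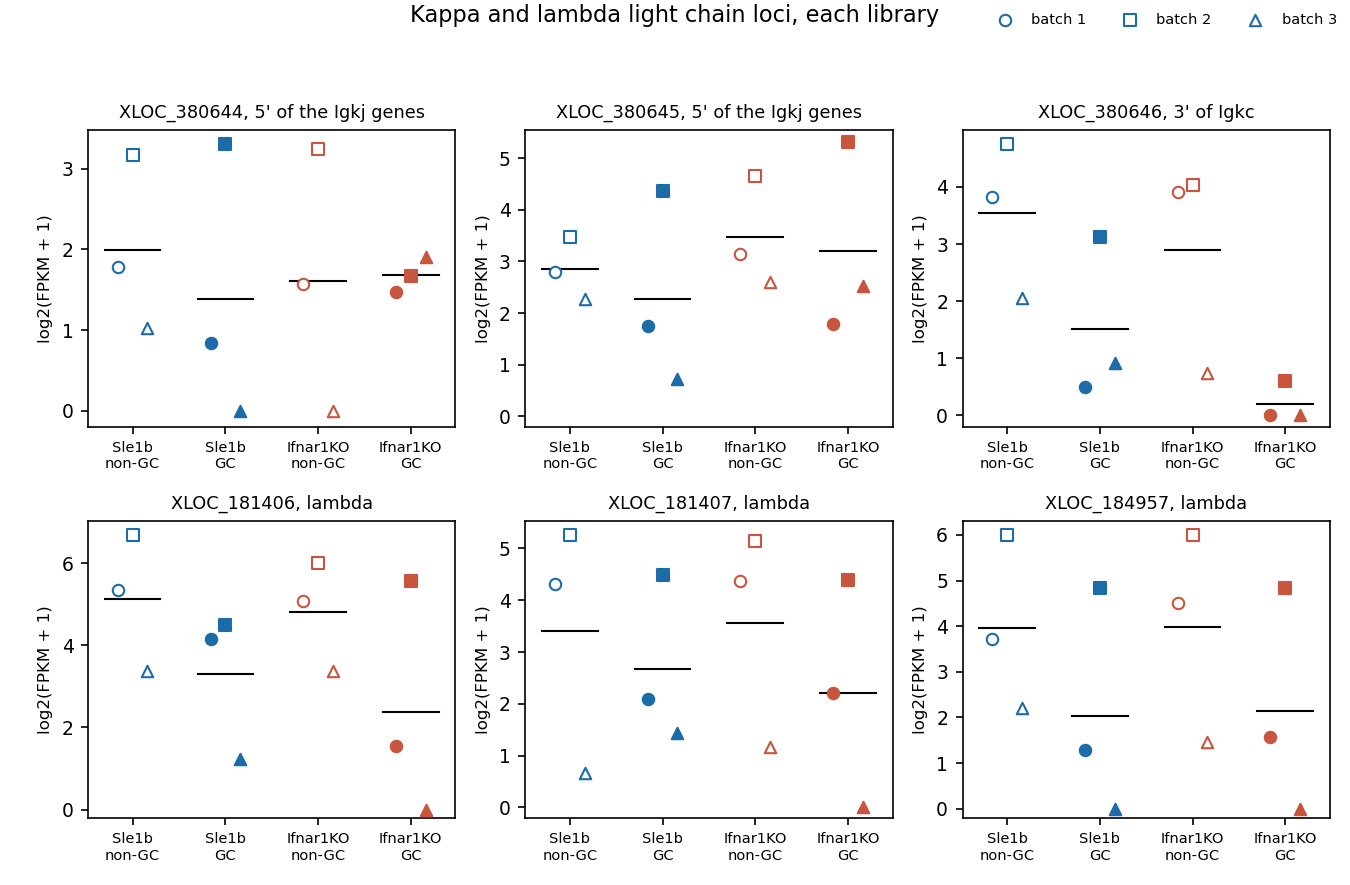
log2(FPKM + 1) of 3 kappa and 3 lambda unnamed loci in each of the 12 libraries, by group, drawn as for the heavy chain loci. XLOC_380646, XLOC_181406 and XLOC_184957 were lower in GC in all 6 pairs of the same batch and genotype.

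Set side by side, the 3 loci differed in direction by sums of loci of at least 800 bp, but not by sums over all lengths. Over all lengths the GC minus non-GC difference of the log2 heavy chain sum was -0.18 ± 4.72 (SD, n = 6 pairs, higher in 3). That of the kappa sum was -1.25 ± 5.70 (higher in 4). Over loci of all lengths the summed FPKM ran from 239.6 to 2.54e+06 in the heavy chain locus, where short loci carried the highest sums, and from 67.5 to 1991 in the lambda locus. The lambda sum of all lengths differed by -0.40 ± 1.79 (SD, n = 6 pairs) between GC and non-GC on the log2 scale and was higher in GC in 2 of 6 pairs, both of batch 3, and by -1.51 ± 0.65 in batches 1 and 2 alone, where 0 of 4 were higher. For loci of at least 800 bp (35 heavy, 87 kappa and 32 lambda, a length set after the values were seen), the heavy chain sum was 25.9, 53.9 and 76.0 FPKM in Sle1b non-GC and 160, 265.5 and 178 FPKM in Sle1b GC. The labelled knockout gave 36.2, 79.4 and 59.6 FPKM in non-GC and 148, 305 and 101 FPKM in GC. It was thus higher in GC in 6 of 6 pairs, by 1.81 ± 0.70 on the log2 scale (SD, n = 6 pairs). The kappa sum was lower in GC in 6 of 6 pairs, with a mean difference of -1.03 ± 0.45, and the lambda sum in 6 of 6, with -1.41 ± 0.63. Such sums were not made for other loci of that length, and they were not scaled to equal medians. The 6 pairs include batch 3, where the germinal centre markers did not separate GC from non-GC. Within the heavy chain locus, the 8 long loci beyond Igha were higher in 6 of 6 pairs (3.25 ± 1.27) and the 10 among the constant genes in 5 of 6 (3.31 ± 2.85), the exception being the labelled knockout in batch 3 with 41.6 FPKM in non-GC and 17.6 in GC. The 11 long loci among the V segments were higher in 4 of 6 pairs (-0.64 ± 2.45). Counted by size, 8 loci were lower in Sle1b GC by at least 1 in all 3 batches, beside 0.587% of all loci: 4 among the kappa V segments, 1 beyond Igkc, 2 lambda and 1 heavy V. In the labelled knockout 9 were, beside 1.01%: 4 kappa V, 3 lambda and 2 heavy V. In batches 1 and 2 alone, 14 of 168 loci were higher and 30 lower by that size in Sle1b GC, beside 8.0% and 9.3% of all loci, and 18 and 49 in labelled knockout GC, beside 11.6% and 15.6%. Complete separation with lower values in GC was seen for 8 loci in Sle1b, beside 0.837%, and 15 in the labelled knockout, beside 1.42%.

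**Figure D4:**
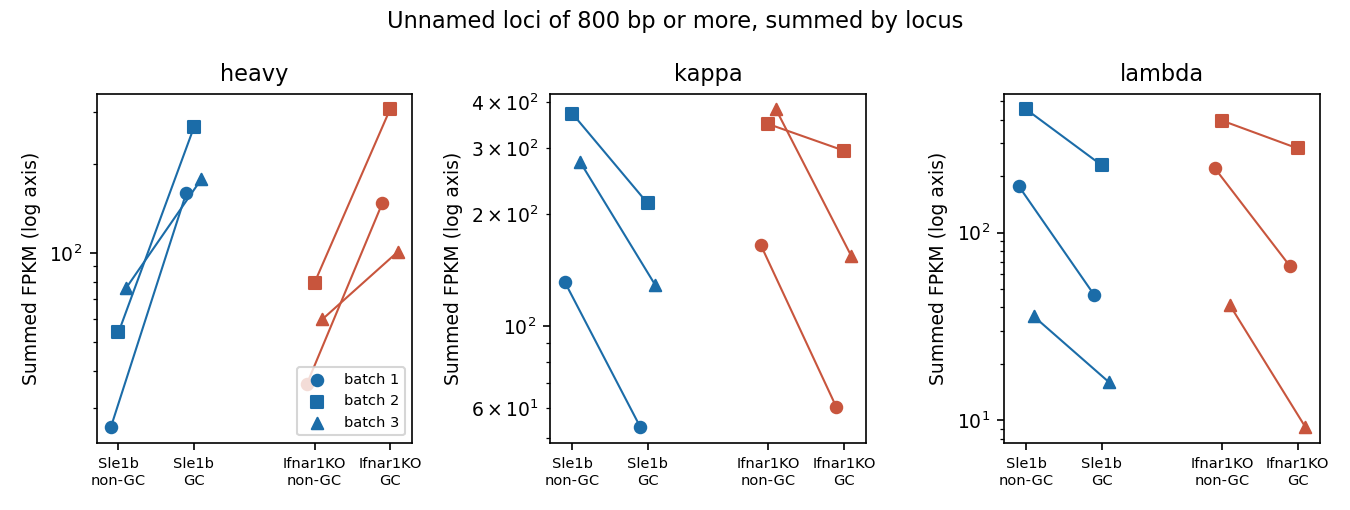
Summed FPKM of unnamed loci of 800 bp or more in the heavy, kappa and lambda loci (log axis); each line joins the non-GC and GC library of 1 batch and genotype. All 6 heavy lines go up, by 1.81 on the log2 scale on average, and all 6 kappa and all 6 lambda lines go down.

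**Figure D5:**
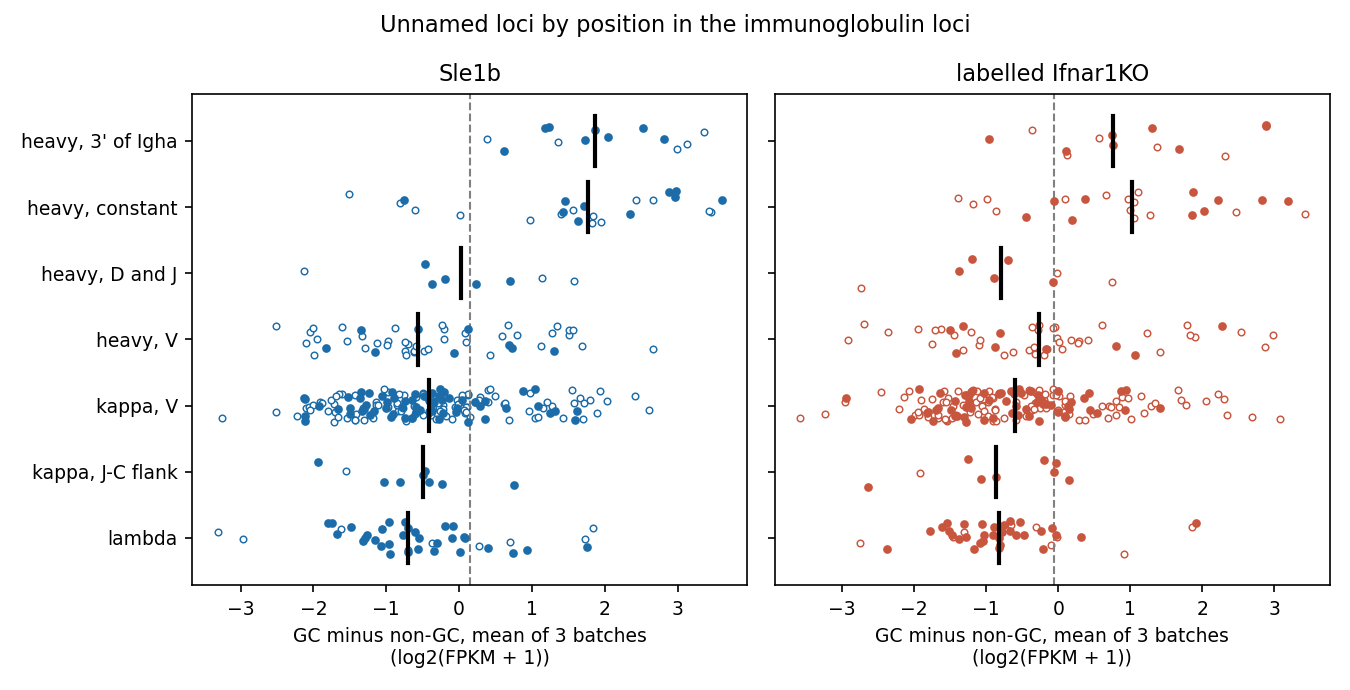
GC minus non-GC difference of log2(FPKM + 1), mean of 3 batches, of each of the 314 tested unnamed loci by position, filled at 800 bp or more; black bars are medians and the dashed line the median of all 106050 loci. The 2 rows nearest the heavy constant genes lie to the right of the dashed line, with medians of 1.87 and 1.77 in Sle1b, and the kappa and lambda rows to its left.

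The share of long unnamed loci in the FPKM of long unnamed plus named immunoglobulin loci differed between the 3. Shorter unnamed loci were left out of both parts of this share. The heavy chain share in batches 1 and 2 was 0.453% and 1.05% in Sle1b non-GC and 4.28% and 7.97% in Sle1b GC. In the labelled knockout it was 0.627% and 2.09% against 4.67% and 8.24%. In batch 3, where the named immunoglobulin genes were low, the share was 9.18% and 9.57% in non-GC and 43.9% and 32.7% in GC. The lambda share was 10.2% and 24.5% in Sle1b non-GC and 6.82% and 25.3% in Sle1b GC in batches 1 and 2, and 11.2% and 24.5% against 11.9% and 36.2% in the labelled knockout. The kappa share was 2.05% and 7.97% against 1.55% and 6.95% in Sle1b, and 2.24% and 9.80% against 1.84% and 10.8% in the labelled knockout. In batch 3 these 2 shares were higher in GC as well. The lambda share there was 17.1% against 56.4% in Sle1b and 17.7% against 85.2% in the labelled knockout. The kappa share was 21.9% against 58.3% and 33.7% against 55.4%.

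Between the genotypes few loci differed by size in the same direction in all 3 batches. Among non-GC cells the 314 loci had a median of 0.11, beside 0.06 for all loci, and in GC cells -0.03, beside -0.16. Equal medians of the named loci would add 0.34 to the difference in GC cells, where 173 of the 314 were lower in the labelled knockout and, so scaled, 191 were higher. The long heavy chain loci differed by -0.01 ± 0.53 between labelled knockout and Sle1b (SD, n = 6 pairs, higher in 3), the kappa loci by 0.27 ± 0.21 (higher in 5) and the lambda loci by 0.05 ± 0.47 (higher in 4). A difference of at least 1 in all 3 batches was met in non-GC cells by 4 loci that were higher (beside 0.268% of all loci) and 1 lower (0.171%), and in GC cells by 1 higher (0.673%) and 1 lower (0.645%). In batches 1 and 2 alone the counts were 14 higher (4.17%) and 5 lower (2.53%) in non-GC cells, and 12 higher (6.01%) and 5 lower (5.9%) in GC cells. Complete separation of the genotypes was seen in non-GC cells for 4 higher (0.538%) and 3 lower (0.351%), and in GC cells for 1 higher (0.716%) and 4 lower (0.929%). One of the 4 in non-GC cells was XLOC_380033 (chr6:68156154-68156838, 685 bp), 3536 bp from Igkv2-116. It stood at 8.70, 10.2 and 6.79 FPKM in labelled knockout non-GC, at 0, 0.722 and 0 FPKM in Sle1b non-GC, and at 0 in all 6 GC libraries. The fitted difference in non-GC cells was 3.01 ± 0.76 (SE; limma, adjusted p = 1). In the other direction, XLOC_181390 (chr16:19024527-19025121, 595 bp) stood at 5.65, 12.7 and 10.7 FPKM in Sle1b non-GC and at 0.333 FPKM or less in the 9 other libraries. XLOC_380005 (747 bp), 7367 bp from Igkv17-121, was at 6.08, 15.7 and 14.8 FPKM in labelled knockout GC against 0.789, 0 and 4.08 FPKM in Sle1b GC.

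Genes of antibody diversification were read from a list of 32, of which 28 were tested; most act in switching, hypermutation or the repair of cut DNA, Rag1, Rag2 and Dntt act in V(D)J joining, and Zfp318 and Ell2 act on the processing of immunoglobulin transcripts. In Sle1b 20 were higher and 8 lower in GC (median 0.55), and in the labelled knockout 13 were higher and 15 lower (median -0.10), with 0 called by limma in either. With equal medians of the named loci, 23 and 18 of 28 were higher, with medians of 0.72 and 0.36. Between genotypes, 15 were higher and 13 lower in labelled knockout non-GC cells, and 6 higher and 22 lower in GC cells (median -0.41), again with 0 called. Of the named loci 64.1% were lower in the labelled knockout in GC cells, and with equal medians of the named loci 17 of the 28 were (median -0.07).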

How the data were processed

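RNA of sorted splenic B cells was amplified (SMARTer Ultra Low Input v3) before Nextera XT library preparation, per the labels' protocols. CASAVA, TopHat2 2.0.9, Bowtie2 2.1.0, Cufflinks 2.2.1 and Cuffdiff with GRCm38/mm10 are named in the submitters' processing notes. The deposited tables give FPKM per locus as the authors' Cuffdiff runs wrote it, in 17 tables that each compare 1 library with 1 other of the same batch and were each normalized separately. The direct batch 1 comparison of the Sle1b libraries was not used here; the other 5 tables of that batch link them.

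Within-table differences of log2(FPKM + 1) were joined by least squares within each batch, and printed FPKM are means over a library's tables. Loci at 1 FPKM or more in at least 3 libraries were fitted with limma 3.58.1 in R 4.3.3 (trend, batch as block, 6 residual degrees of freedom, two-sided, Benjamini-Hochberg adjustment over all loci, threshold 0.05), after a check on simulated data. Sums and counts were made with Python 3.11.15, pandas 2.3.3 and numpy 2.4.6. Below 2500 bp, values of low loci were whole numbers of reads within 0.1 read, which gave the depth and the estimated reads. No 2 libraries were near copies (highest correlation 0.838). Batches come from the deposited tables. Deviations from the group means correlated by at least 0.0823, 0.248 and 0.294 within batches 1, 2 and 3; between batches 1 and 2 they reached 0.629, and between batch 3 and the others -0.110 at most.

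Named loci were the 6 with the highest median FPKM in each immunoglobulin locus, the 3 with the largest same-sign differences in each direction of each comparison, and every tested locus between Igha and Ighm. The loci, gene lists and tests were chosen with earlier results of these data known. Alternatives were another pseudocount (0.1 FPKM), filters (5 FPKM or none), no block, each library left out, batches 1 and 2 alone, other scalings and joins, loci of at least 800 bp, and counts without loci at 0 in every library of 1 cell type, the last 2 chosen after seeing the data.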

Additional observations from a re-analysis of the deposited data

How the results depend on the processing

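Under every alternative 0 of the unnamed immunoglobulin loci were called by limma in any contrast, also with no replicate block (0, with 7 in Sle1b and 3 in the labelled knockout at an unadjusted p under 0.05 between GC and non-GC cells), and each leave-one-library-out fit gave 0.0. The 12 single-locus differences kept their direction in all 144 fits with 1 library left out and 128 others; their adjusted p ran from 0.054 to 1.

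Counts of loci past a size of 1 in every batch depended on the batches and the length. With a size of 2, counts higher and lower were 4 and 1 for Sle1b GC (0.204% and 0.0717% of all loci), 0 and 1 for labelled knockout GC (0.4% and 0.126%), 1 and 1 for the genotypes in non-GC (0.0396% and 0.0339%) and 0 and 0 in GC (0.241% and 0.164%). In batches 1 and 2 alone the counts higher and lower were 14 and 30 for Sle1b GC, 18 and 49 for labelled knockout GC, 14 and 5 for the genotypes in non-GC, and 12 and 5 in GC. At 800 bp or more, with 134 loci, counts higher and lower were 4 and 6 for Sle1b GC (1.24% and 1.38% of all loci of that length). For labelled knockout GC they were 1 and 6 (1.27% and 2.4%). The genotypes gave 2 and 0 in non-GC (0.308% and 0.248%) and 0 and 0 in GC (0.65% and 1.06%). At 800 bp or more in batches 1 and 2 alone, 9 of 106 were higher and 18 lower in Sle1b GC (6.82% and 9.37%). In labelled knockout GC 13 were higher and 29 lower (8.44% and 16%). The genotypes gave 7 and 0 in non-GC (2.63% and 1.48%) and 7 and 3 in GC (4.11% and 5.63%). Fewer batches to satisfy and fewer loci are part of how these settings are built.

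The median share of unnamed loci in the FPKM of unnamed plus named immunoglobulin loci was 67.1% (heavy) and 64.4% (kappa) over all lengths. With unnamed loci under 800 bp left out of both parts, it was 6.32% and 8.88%. The mean GC minus non-GC difference of the log2 heavy chain sum over all lengths was -0.18 and ran from -1.66 to 0.99 with 1 library left out, and the kappa sum (-1.25) from -2.95 to 0.12, so neither has a direction. Depth limits short loci, where few reads give high FPKM.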
